A study of Rattus norvegicus with 20 samples.

Results

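The secreted and membrane-bound signals that steer growing axons, together with their receptors, were read out in hippocampal RNA of newborn Gunn rats. The group holds the ephrins and Eph receptors, the Slits and Robo receptors, the netrins with their receptors Dcc, neogenin (Neo1) and Unc5, the netrin-G proteins and Draxin. Members were taken by gene symbol and by a mean of at least 10 reads over the 20 libraries. Of 41 matching symbols in a table of 32883 genes, 38 met this rule. They were 5 A ephrins, 3 B ephrins, 7 EphA receptors, 5 EphB receptors, 3 Slits, 3 Robo receptors, 3 netrins, 2 netrin-G genes, 6 netrin receptors and Draxin. The 3 symbols left out were Ntn5 (mean 7.5 reads), Epha1 (6.3 reads) and Robo4 (1.2 reads). The members nearest to the minimum on the other side were Robo3 (48.4 reads), Epha2 (76.8 reads) and Efna5 (80.5 reads). All 38 members also passed the filter of the gene test, which kept 15272 genes.

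Ephrins sit on the surface of a cell and bind Eph receptors on the cell it touches, which mostly pushes the growing axon away. Slits are secreted repellents that bind Robo receptors, whereas netrins are secreted cues that attract axons through Dcc and repel them when Unc5 receptors take part. Draxin is a secreted repellent that binds both netrin-1 and Dcc, and in mice its loss disturbs the commissures of the forebrain, including the hippocampal commissure. In the early postnatal hippocampus these families are known for sorting the entorhinal, mossy fibre and commissural inputs and, in the case of the EphB receptors, for forming synapses.

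Gunn rats lack a working bilirubin-conjugating enzyme in the homozygous state. The homozygous pups (jj) were jaundiced. The heterozygous pups (Nj, also written Jj) carried a single copy of the same allele and were not jaundiced, so no group was free of the Gunn allele. All pups were of the Gunn strain and were killed at postnatal day 6. The 4 groups of 5 pups were light-treated jj, untreated jj, light-treated Nj and untreated Nj. Light treatment was phototherapy by LED, which converts bilirubin in the skin into forms that can be excreted. It was given between days 4 and 6, for 12 h in total with 3 h on and 3 h off. PolyA RNA of a hippocampal lobe of each pup was sequenced. The description of the series speaks of 5 rats per group, which is taken here to mean separate pups. It gives neither the sex nor the litter of a pup, so the spread between pups of a group may include both.

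Libraries held between 16.9 and 27.1 M (mega) counted reads. Levels are given as CPM, the reads of a gene per M reads of its library, scaled by the trimmed mean of M values, and they were not compared between genes because CPM are not corrected for transcript length. All 10 markers of hippocampal neurons had reads in every library. The choroid plexus transcript Ttr, by contrast, ran between 3.57 and 9662 CPM, and exceeded 1000 CPM in 3 light-treated jj, 1 untreated jj, 2 light-treated Nj and 1 untreated Nj libraries. Results are therefore also given without these 7 libraries. Replicate 4 of the light-treated Nj pups stood apart from the other 4 pups of its group in 3 members, Efnb1, Efnb2 and Unc5d, each of them highest in it. It was also the lowest of all 20 pups for Epha4 (323 CPM), Ephb1 (67.3), Ephb2 (76.5), Ephb3 (21.2), Ephb6 (69.0) and Ntng2 (73.4). Its summed markers of hippocampal neurons were the lowest of all 20 pups (1293 CPM). Summed markers of meninges (986 CPM) and of endothelium and mural cells (780.5 CPM) were the highest of its group. What sets this pup apart was not tested. The library titles carry a prefix of unstated meaning: every treated pup has J18, untreated jj pups have J17, and untreated Nj pups have J13, J14 or J15. Light and prefix cannot be told apart in these data, whereas jj and Nj pups under light share a prefix.

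The promoters of Draxin, of its receptor Dcc and of Robo1 are shown because transcripts of all 3 genes were lower after light and because Draxin and Robo1 were the only members in which all 10 light-treated pups lay below all 10 untreated pups. Each window runs 250 bases before to 50 bases after an annotated start of transcription in RefSeq (build GRCr8), written 5′ to 3′ on the strand of the gene. RefSeq gives 2 starts for Draxin, at chr5:163846560-163846859 and chr5:163836813-163837112 (both minus strand), 2 for Robo1, at chr11:24067706-24068005 and chr11:24714445-24714744 (both plus strand), and 1 for Dcc, at chr18:68247625-68247924 (minus strand). Capitals mark matches, on either strand, to the GC box (GGGCGG), the CCAAT box (CCAAT), the TATA box (TATAAA), the E-boxes CAGCTG and CACGTG and the cAMP response element (TGACGTCA).
Draxin start 1: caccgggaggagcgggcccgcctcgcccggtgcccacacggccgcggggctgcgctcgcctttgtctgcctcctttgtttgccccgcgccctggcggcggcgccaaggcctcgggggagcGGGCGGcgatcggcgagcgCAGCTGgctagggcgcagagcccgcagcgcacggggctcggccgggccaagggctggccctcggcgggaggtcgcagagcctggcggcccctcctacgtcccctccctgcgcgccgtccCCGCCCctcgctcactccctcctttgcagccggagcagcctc
Draxin start 2: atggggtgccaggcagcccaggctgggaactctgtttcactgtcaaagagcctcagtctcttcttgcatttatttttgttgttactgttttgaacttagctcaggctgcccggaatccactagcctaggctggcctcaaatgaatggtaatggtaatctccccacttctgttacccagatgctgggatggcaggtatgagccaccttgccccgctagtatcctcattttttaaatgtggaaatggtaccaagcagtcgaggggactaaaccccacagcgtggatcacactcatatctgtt
Dcc: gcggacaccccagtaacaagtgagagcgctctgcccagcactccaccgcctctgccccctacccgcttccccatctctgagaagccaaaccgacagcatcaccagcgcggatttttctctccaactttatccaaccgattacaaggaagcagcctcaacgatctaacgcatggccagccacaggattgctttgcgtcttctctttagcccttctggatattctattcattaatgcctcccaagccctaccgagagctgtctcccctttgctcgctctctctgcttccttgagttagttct
Robo1 start 1: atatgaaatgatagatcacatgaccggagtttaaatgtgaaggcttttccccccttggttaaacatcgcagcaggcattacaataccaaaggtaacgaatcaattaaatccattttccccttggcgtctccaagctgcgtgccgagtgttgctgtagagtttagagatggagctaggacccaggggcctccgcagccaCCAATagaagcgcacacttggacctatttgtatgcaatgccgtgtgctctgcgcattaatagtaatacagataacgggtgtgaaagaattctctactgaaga
Robo1 start 2: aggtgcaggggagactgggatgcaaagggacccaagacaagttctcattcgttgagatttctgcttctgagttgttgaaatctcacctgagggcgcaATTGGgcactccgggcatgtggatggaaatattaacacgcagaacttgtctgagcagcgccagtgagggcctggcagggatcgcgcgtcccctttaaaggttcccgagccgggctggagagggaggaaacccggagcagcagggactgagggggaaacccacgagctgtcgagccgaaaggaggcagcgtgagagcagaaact

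The first Draxin window held 2 GC boxes and 1 CAGCTG, and 78.0% of its bases were G or C. Its second start had no match to any of the 6 motifs and 49.0% G or C. Each Robo1 window held 1 CCAAT box, and the Dcc window held no match. Promoters were found for 31 of the 38 members (33 windows). Among the 11 members that fell after light, 9 had a promoter in the table (11 windows). Of these 11 windows, 7 held a CCAAT box, 4 a GC box, 1 a CAGCTG and 0 a TATA box, CACGTG or cAMP response element. Both Robo1 windows are among the 7. Of all 33 member windows, 14 held a CCAAT box, 16 a GC box, 6 a CAGCTG, 3 a CACGTG and 1 a cAMP response element. The median share of G or C was 64.3% over the member windows and 51.7% over all promoters. Over all 33469 rat promoters of this length, the shares were 37.5% for the CCAAT box, 33.1% for the GC box, 15.1% for CAGCTG, 14.2% for the TATA box, 6.42% for CACGTG and 1.83% for the cAMP response element. No member window of the 33 held a TATA box. These matches describe the letters in the window and not the binding of a factor.

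The main question on these genes was whether their transcripts differed between light-treated and untreated pups, and averaged over both genotypes 11 of the 38 members fell and 0 rose. The 11 were the repellent Draxin, Slit2 and its receptor Robo1, the ephrins Efna4, Efnb1 and Efnb3, the receptors Ephb2 and Ephb4, and the netrin receptors Dcc, Neo1 and Unc5b. Across all 15272 genes tested, 5.74% were lower, 4.35% were higher and 10.1% changed in either direction. Here and below, all genes were not matched to the members by level. The test was edgeR's two-sided quasi-likelihood test with Benjamini-Hochberg adjustment over all genes and a threshold of 0.05, and fold changes are log2 of light-treated over untreated. The median log2 fold change was -0.07 over the members, of which 30 of 38 were negative, and 0.00089 over all genes, of which 49.6% were negative. Those that fell lay between -0.53 for Draxin and -0.12 for Efnb3. In bulk RNA, fewer cells that express a gene cannot be told apart from less RNA per cell. Every treated pup and no untreated pup had prefix J18, so light cannot be told apart from prefix in this contrast.

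**Figure D1:**
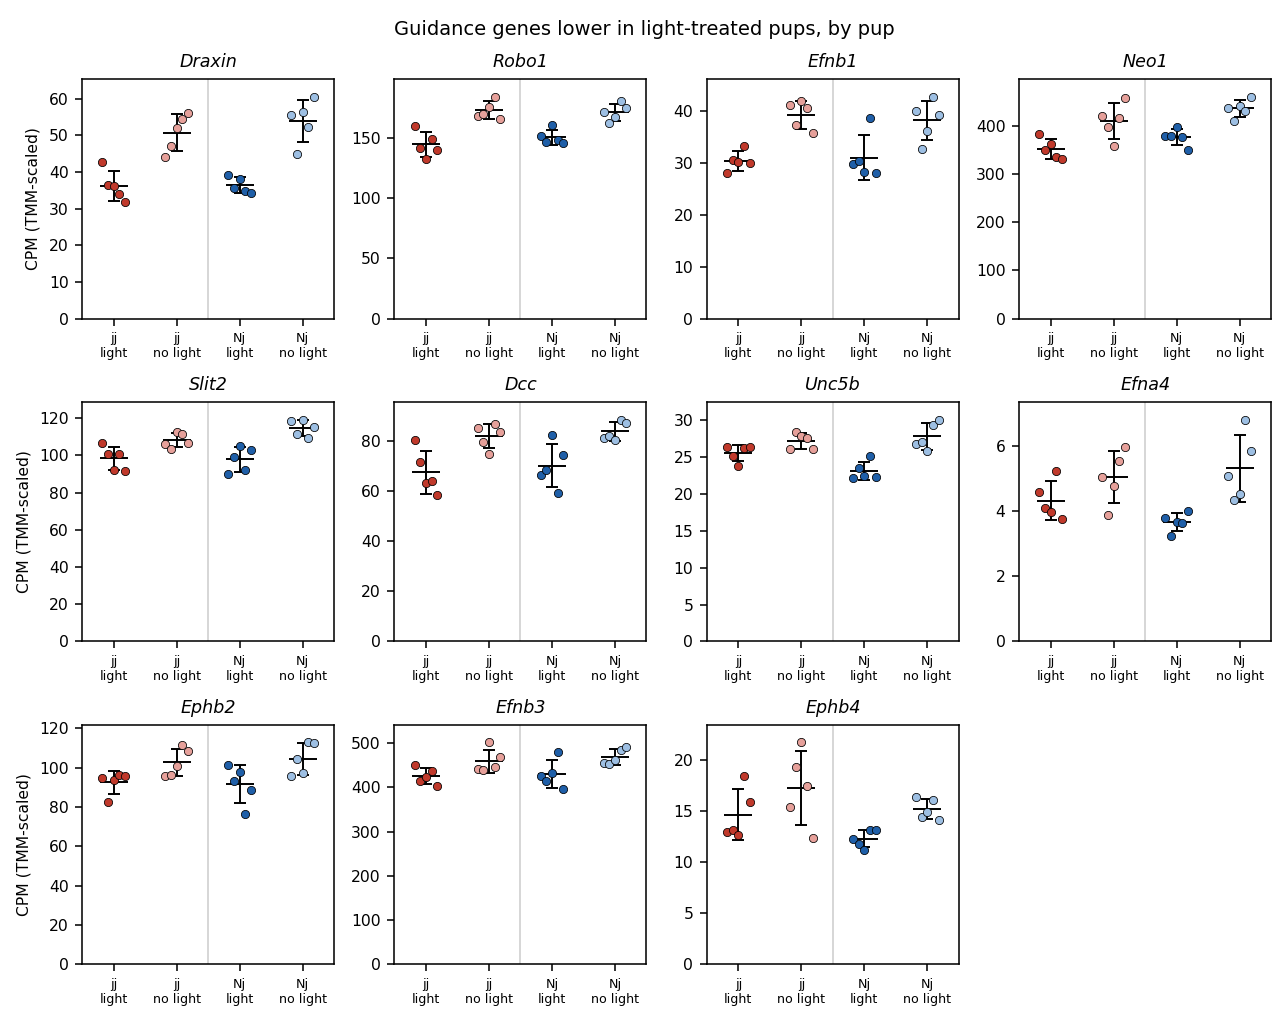
CPM of the 11 members that were lower after light averaged over both genotypes, with a point for each pup and the mean ± SD of 5 pups per group (light-treated left of untreated, jj left of Nj, axes starting at 0). Draxin and Robo1 are the panels in which all 10 light-treated pups lie below all 10 untreated pups.

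Draxin (ENSRNOG00000008911) had the largest of these falls. Its CPM were 42.8, 36.5, 36.1, 34.0 and 31.9 in light-treated jj pups, against 44.1, 47.2, 51.9, 54.3 and 56.1 in untreated jj pups. For light-treated Nj pups they were 39.2, 35.7, 38.2, 34.7 and 34.1, against 55.5, 45.0, 56.4, 52.1 and 60.6 in untreated Nj pups. Every treated pup was below every untreated pup of either genotype: the highest treated value was 42.8 CPM and the lowest untreated value 44.1 CPM. The fold change averaged over genotypes was -0.53 ± 0.058 (SE), which leaves a fraction of 0.695 of the untreated level, with an adjusted p of 3.45e-05 by edgeR. By p it ranked 2 of all genes tested.

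Slit2 (ENSRNOG00000003840), a repellent for axons that carry Robo receptors, fell by less. Its CPM were 107, 101, 92.4, 101 and 91.8 in light-treated jj pups, against 106, 104, 113, 111 and 107 in untreated jj pups. Light-treated Nj pups had 90.0, 99.3, 105, 92.0 and 103 CPM, against 118, 111, 119, 109 and 115 CPM in untreated Nj pups. The groups did not overlap in Nj pups, whereas in jj pups the highest treated pup lay within the untreated range. Averaged over genotypes the log2 fold change of Slit2 was -0.18 ± 0.035 (SE, edgeR adjusted p = 0.00228).

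Slit1 and Slit3, the other Slits of the forebrain, did not pass. Slit1 had 99.2, 93.0, 88.0, 97.9 and 94.5 CPM in light-treated jj pups, against 96.6, 103, 94.6, 95.6 and 95.4 CPM in untreated jj pups. The Nj pups had 94.6, 80.6, 85.4, 105 and 81.0 CPM after light, against 91.3, 101, 93.8, 112 and 105 CPM without it. Its groups overlapped in both genotypes, with an averaged log2 fold change of -0.11 ± 0.046 (SE, edgeR adjusted p = 0.155). Without replicate 4 of the light-treated Nj pups it passed (-0.13, adjusted p = 0.0406), and in the other 25 of 26 alternatives it did not. Slit3 had 73.5, 74.1, 56.5, 73.0 and 67.8 CPM in light-treated jj pups, against 69.9, 67.5, 88.6, 74.2 and 66.3 CPM in untreated jj pups. In light-treated Nj pups the values were 64.2, 65.7, 66.7, 63.5 and 68.3 CPM, against 76.4, 75.2, 70.6, 66.5 and 75.3 CPM in untreated Nj pups. Of the treated Nj pups 2 lay above the lowest untreated Nj pup, whereas the jj groups overlapped widely, and the averaged log2 fold change was -0.12 ± 0.052 (SE, edgeR adjusted p = 0.158).

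No netrin passed the edgeR test. Ntn1, the netrin that acts on commissural axons, had 4.47, 6.44, 6.79, 7.86 and 5.68 CPM in light-treated jj pups, against 5.36, 5.89, 5.71, 5.69 and 3.83 CPM in untreated jj pups. The Nj pups had 5.31, 5.50, 4.56, 6.15 and 4.59 CPM after light, against 3.69, 5.05, 3.63, 4.83 and 4.00 CPM without it. The ranges overlapped in both genotypes, and its averaged log2 fold change was 0.27 ± 0.1 (SE) with an edgeR adjusted p of 0.108. Without replicate 1 of the light-treated jj pups it was 0.33 and passed (adjusted p = 0.0376). Ntn1 did not pass in the other 25 of 26 alternatives. Ntn3 (-0.07) and Ntn4 (0.09), a netrin of basement membranes, did not pass, nor did Ntng1 (-0.04) and Ntng2 (-0.06), which encode anchored proteins that bind other partners than the netrin receptors. Over all 20 pups these 4 genes ran between 10.6 and 16.2 CPM for Ntn3, 6.85 and 13.0 CPM for Ntn4, 29.8 and 45.0 CPM for Ntng1 and 73.4 and 90.6 CPM for Ntng2.

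Among the ephrins, 3 of 8 fell. Efnb1 (ENSRNOG00000006877), a transmembrane ephrin that can also signal backwards into its own cell, had 28.0, 30.6, 30.1, 33.2 and 30.1 CPM in light-treated jj pups, against 41.1, 37.2, 41.9, 40.6 and 35.7 CPM in untreated jj pups. Light-treated Nj pups had 29.8, 30.5, 28.3, 38.7 and 28.0 CPM, against 40.1, 32.8, 36.2, 42.8 and 39.1 CPM in untreated Nj pups. The jj groups did not overlap, and in Nj pups replicate 4 of the treated group stood well above the other 4 and within the untreated range. Averaged over genotypes, the log2 fold change of Efnb1 was -0.34 ± 0.058 (SE, edgeR adjusted p = 0.0011).

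Efna4, an ephrin held by a lipid anchor, was read from few counts and had 4.58, 4.11, 3.98, 5.24 and 3.75 CPM in light-treated jj pups, against 5.07, 3.89, 4.79, 5.53 and 5.99 CPM in untreated jj pups. Light-treated Nj pups had 3.80, 3.26, 3.67, 3.65 and 4.02 CPM, against 5.08, 4.35, 4.52, 6.82 and 5.84 CPM in untreated Nj pups. The Nj groups did not overlap and the jj groups did. Its averaged log2 fold change was -0.38 ± 0.096 (SE, edgeR adjusted p = 0.0143). Efnb3, a midline ephrin in the developing nervous system of mice, had 451, 415, 422, 437 and 403 CPM in light-treated jj pups, against 442, 439, 501, 446 and 468 CPM in untreated jj pups. The Nj pups had 425, 414, 433, 479 and 396 CPM after light, against 456, 452, 461, 485 and 491 CPM without it. These ranges overlapped in both genotypes, and the averaged log2 fold change was -0.12 ± 0.035 (SE, edgeR adjusted p = 0.0325). Efnb3 did not pass, with adjusted p up to 0.081, without replicate 4 or 5 of the untreated Nj pups, replicate 5 of the untreated jj pups, replicate 1, 2, 3 or 5 of the treated Nj pups or replicate 2, 3 or 5 of the treated jj pups. The other 5 ephrins lay between -0.12 for Efna5 and 0.20 for Efna1 on the averaged log2 scale and did not pass. Over all 20 pups their levels ran between 4.07 and 7.28 CPM for Efna1, 11.1 and 15.99 CPM for Efna2, 27.1 and 36.1 CPM for Efna3, 2.82 and 4.60 CPM for Efna5 and 78.1 and 139 CPM for Efnb2. For Efnb2, replicate 4 of the light-treated Nj pups stood apart with 139 CPM, where the other 4 had 78.2 to 94.3 CPM. With all libraries the averaged log2 fold change of Efnb2 was -0.11 (edgeR adjusted p = 0.405), and without that pup Efnb2 passed at -0.19 ± 0.047 (SE, edgeR adjusted p = 0.0123). Efnb1 without the same pup stood at -0.38 (edgeR adjusted p = 0.000131).

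**Figure D2:**
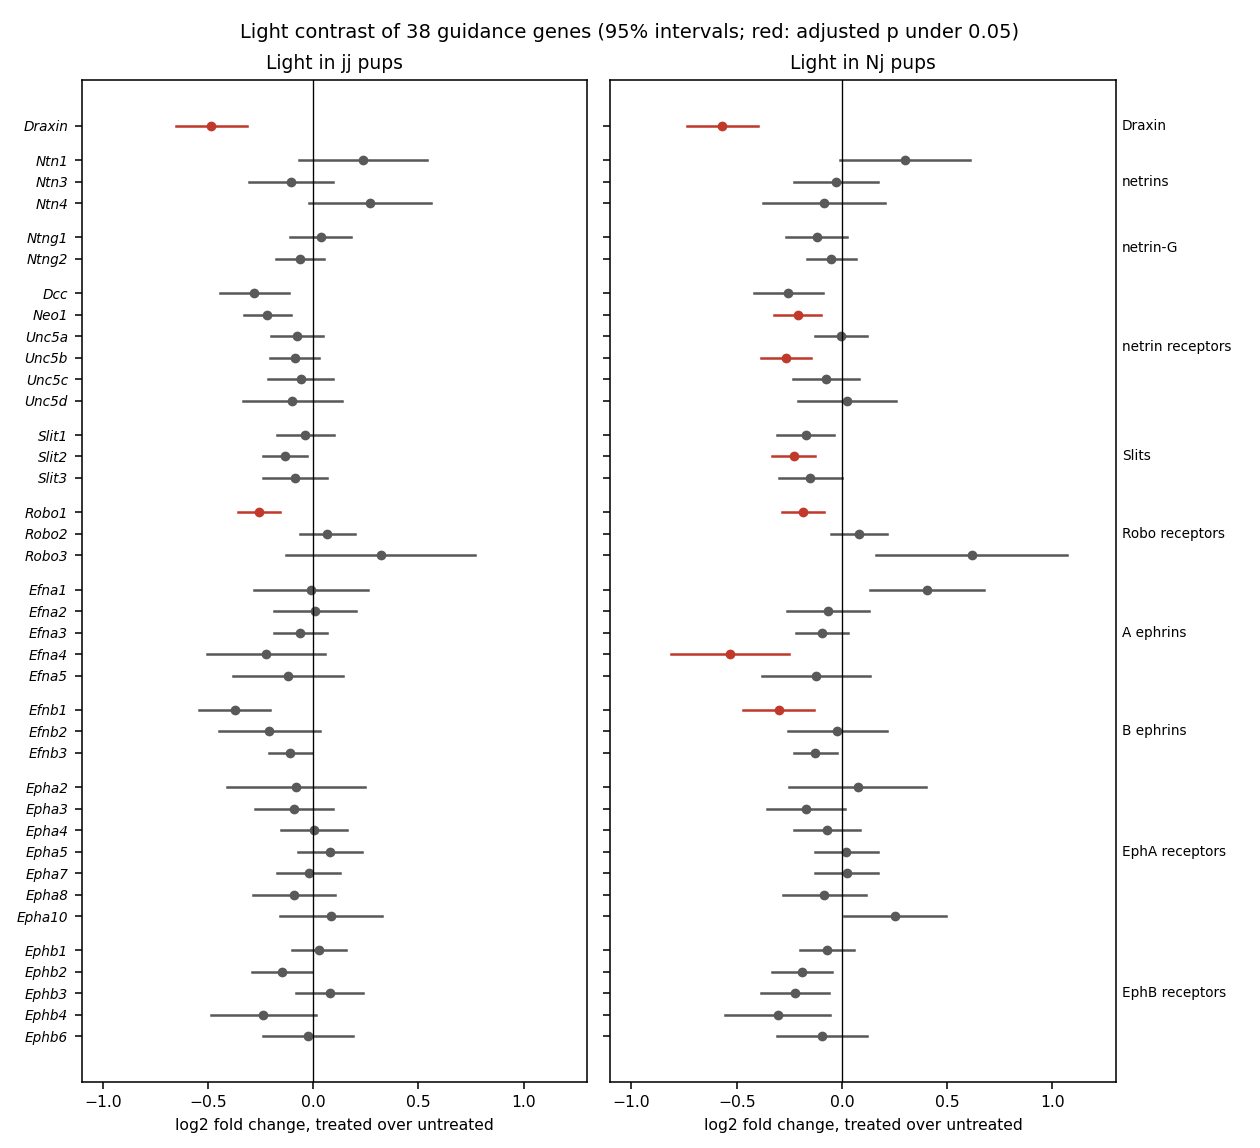
Log2 fold change of light-treated over untreated pups for the 38 members, ordered by role, in jj and in Nj pups, with 95% confidence intervals from the edgeR fit (5 against 5 pups each). Red symbols passed an adjusted p of 0.05: Draxin and Robo1 in jj pups, and 7 members in Nj pups, all of them negative.

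Robo1 (ENSRNOG00000029614) was the receptor with the clearest fall. It had 160.1, 142, 133, 149.5 and 139.7 CPM in light-treated jj pups, against 168, 170.2, 176, 184 and 166 CPM in untreated jj pups. In light-treated Nj pups the values were 152, 147, 161, 149 and 146 CPM, against 172, 162, 168, 181 and 175 CPM in untreated Nj pups. All 10 treated pups lay below all 10 untreated pups, by a margin at its narrowest of 161.2 against 162.2 CPM. The averaged log2 fold change was -0.22 ± 0.034 (SE, edgeR adjusted p = 0.00048). Only Draxin and Robo1 among the 38 members had 10 treated pups below 10 untreated ones, which 0.295% of all genes also had.

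The other Robo receptors did not pass the edgeR test. Robo2 had 242, 224, 277, 238 and 247 CPM in light-treated jj pups, against 228, 262, 193, 241 and 249 CPM in untreated jj pups. Light-treated Nj pups had 271, 269.7, 251, 259.7 and 241 CPM, against 238, 242, 255, 247 and 240.2 CPM in untreated Nj pups. The ranges overlapped in both genotypes. Its averaged log2 fold change was 0.07 ± 0.045 (SE) with a 95% interval between -0.02 and 0.17 (adjusted p = 0.322). Robo3, which in mammals does not bind Slits with high affinity and acts in commissural axons, had 1.53, 3.73, 2.60, 3.29 and 2.91 CPM in light-treated jj pups, against 1.99, 2.06, 2.34, 2.21 and 2.58 CPM in untreated jj pups. In light-treated Nj pups the values were 3.33, 2.91, 2.65, 1.60 and 2.25 CPM, against 1.53, 1.10, 1.84, 1.99 and 1.89 CPM in untreated Nj pups. Most treated pups were high, but replicate 1 of the treated jj pups and replicate 4 of the treated Nj pups were low. Its averaged log2 fold change of 0.47 ± 0.15 (SE) did not pass (edgeR adjusted p = 0.0557). It did pass by DESeq2 (adjusted p = 0.0353), without replicate 4 of the light-treated Nj pups (edgeR, 0.025) and without replicate 1 of the light-treated jj pups (edgeR, 0.0126). In the other 23 of 26 alternatives Robo3 did not pass, with edgeR adjusted p up to 0.516. Over all 26 its averaged log2 fold change lay between 0.26 and 0.56.

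Of the 6 netrin receptors, 3 fell. Dcc (ENSRNOG00000033099), the attractive netrin receptor to which Draxin also binds, had 80.3, 71.6, 63.3, 64.0 and 58.4 CPM in light-treated jj pups, against 85.2, 79.7, 74.7, 86.6 and 83.8 CPM in untreated jj pups. Light-treated Nj pups had 66.5, 68.3, 82.5, 59.3 and 74.2 CPM, against 81.4, 81.8, 80.4, 88.6 and 87.1 CPM in untreated Nj pups. In each genotype 4 of 5 treated pups lay below every untreated pup and 1 lay within the untreated range. The averaged log2 fold change of Dcc was -0.27 ± 0.056 (SE, edgeR adjusted p = 0.00463), although it passed in neither genotype alone.

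Neo1 (ENSRNOG00000006490), a receptor related to Dcc that binds netrins and the repulsive guidance molecules, had 383, 349.8, 363, 336 and 332 CPM in light-treated jj pups, against 422, 399, 357, 416 and 457 CPM in untreated jj pups. After light, Nj pups had 380.1, 380.0, 399, 378 and 351 CPM, against 437, 411, 442, 432 and 461 CPM in untreated Nj pups. The Nj groups did not overlap, and in jj pups 1 untreated pup lay within the treated range. Its averaged log2 fold change was -0.21 ± 0.038 (SE, edgeR adjusted p = 0.00134).

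Unc5b (ENSRNOG00000000567), a repulsive netrin receptor that endothelial cells also carry, had 26.3, 25.2, 23.7, 26.2 and 26.4 CPM in light-treated jj pups, against 26.1, 28.3, 27.8, 27.6 and 26.0 CPM in untreated jj pups. Values in light-treated Nj pups were 22.1, 23.5, 22.5, 25.1 and 22.3 CPM, against 26.8, 27.0, 25.8, 29.3 and 30.1 CPM in untreated Nj pups. The ranges overlapped in jj pups and not in Nj pups. Averaged over genotypes the log2 fold change was -0.18 ± 0.04 (SE, edgeR adjusted p = 0.00695). Unc5a, Unc5c and Unc5d lay between -0.07 and -0.04 and did not pass. Over all 20 pups they ran between 87.3 and 111 CPM for Unc5a, 50.3 and 72.4 CPM for Unc5c and 37.2 and 66.7 CPM for Unc5d. The highest value of Unc5d came from replicate 4 of the light-treated Nj pups, whose other 4 pups had 39.9 to 44.6 CPM. Its log2 fold change in Nj pups was 0.02 with that pup and -0.13 without it, and it passed in neither fit (edgeR adjusted p = 0.94 and 0.376).

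Among the Eph receptors, 2 of 5 EphB genes and 0 of 7 EphA genes fell. Ephb2, which takes part in forming excitatory synapses, had 94.8, 82.4, 93.4, 96.3 and 95.7 CPM in light-treated jj pups, against 95.9, 96.4, 101, 111 and 109 CPM in untreated jj pups. In light-treated Nj pups the values were 101, 92.9, 97.7, 76.5 and 88.8 CPM, against 95.7, 104, 97.0, 113 and 112 CPM in untreated Nj pups. The ranges overlapped in both genotypes, and its averaged log2 fold change was -0.17 ± 0.048 (SE, edgeR adjusted p = 0.0275). Ephb2 did not pass, with adjusted p up to 0.0705, without replicate 4 or 5 of the untreated Nj or of the untreated jj pups, replicate 5 of the treated Nj pups or replicate 2 of the treated jj pups. Ephb4, known as the EphB receptor of venous endothelium, had 13.0, 13.2, 12.7, 18.5 and 15.95 CPM in light-treated jj pups, against 15.4, 19.4, 21.8, 17.5 and 12.4 CPM in untreated jj pups. The Nj pups had 12.3, 11.8, 11.2, 13.1 and 13.1 CPM after light, against 16.4, 14.5, 14.9, 16.1 and 14.2 CPM without it. The groups overlapped in jj pups and not in Nj pups, and the averaged log2 fold change was -0.27 ± 0.085 (SE, edgeR adjusted p = 0.0446). Leaving out any pup other than replicate 4 of the treated jj pups or replicates 1 and 5 of the untreated jj pups took Ephb4 above the threshold, with adjusted p up to 0.0956. The 7 EphA receptors lay between -0.13 for Epha3 and 0.17 for Epha10, and the lowest adjusted p among them was 0.208. Over all 20 pups they ran between 2.54 and 4.79 CPM for Epha2, 43.4 and 65.8 CPM for Epha3, 323 and 485 CPM for Epha4 and 284 and 431 CPM for Epha5, and between 72.7 and 101 CPM for Epha7, 9.61 and 14.3 CPM for Epha8 and 7.35 and 11.9 CPM for Epha10. Of the EphB receptors that did not pass, Ephb1 (-0.02) ran between 67.3 and 88.7 CPM, Ephb3 (-0.07) between 21.2 and 31.6 CPM and Ephb6 (-0.06), which lacks kinase activity, between 69.0 and 118 CPM.

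Taken by genotype, 7 members fell after light in Nj pups and 0 rose, where 2.51% of all genes were lower and 4.00% changed in either direction. Besides Draxin (log2 fold change -0.57 ± 0.082, adjusted p = 0.00126), these were Unc5b (-0.27, adjusted p = 0.0121), Slit2 (-0.23, 0.0135), Efna4 (-0.53, 0.0306), Robo1 (-0.18, 0.0311), Neo1 (-0.21, 0.0322) and Efnb1 (-0.30, 0.0405), all by edgeR. Fold changes were negative in 29 of the 38 members in Nj pups, beside 49.7% of all genes. In 7 members the treated Nj pups all lay below the untreated ones, a pattern that 3.39% of all genes showed. These were Draxin, Unc5b, Slit2, Efna4, Robo1, Neo1 and Ephb4. Of the 7 calls only that of Draxin held without the Ttr-rich libraries, where 0.419% of all genes were lower, and the count was 2 or 3 without replicate 4 or 5 of the untreated Nj pups or replicate 1, 2 or 5 of the treated Nj pups. Draxin and Slit2 passed in all 10 fits that leave out a Nj pup, Unc5b in 9, Robo1 in 4, Efna4 in 3, and Efnb1 and Neo1 in 2 each. Without replicate 4 of the treated Nj pups 6 members fell in Nj pups, 4 of them among the 7. Efnb3 (adjusted p = 0.0392) and Slit1 (0.0347) were added, and Efna4 (0.0528), Neo1 (0.0539) and Robo1 (0.05297) did not pass by edgeR.

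In jj pups 2 members fell, Draxin (log2 fold change -0.48 ± 0.082, edgeR adjusted p = 0.0199) and Robo1 (-0.26 ± 0.048, 0.0316), where 0.124% of all genes were lower and 0.164% changed. By p they ranked 4 and 9 of all genes tested. Efnb1 (-0.37, 0.0597), Neo1 (-0.22, 0.0896) and Dcc (-0.28, 0.124) did not pass by edgeR and did pass by DESeq2, with adjusted p of 0.00597, 0.0208 and 0.0464. Fold changes were negative in 27 of the 38 members in jj pups, beside 50.2% of all genes. The pups of the treated and untreated jj groups did not overlap for Draxin, Robo1 and Efnb1, with the treated pups lower, against 1.69% of all genes with that pattern. Neither call held without replicate 4 of the untreated jj pups, without replicate 2, 3, 4 or 5 of the treated jj pups, or without the Ttr-rich libraries (adjusted p = 0.491 for Draxin and 0.464 for Robo1), the last a fit with 2 treated and 4 untreated jj pups. The fold changes then were -0.36 for Draxin and -0.24 for Robo1.

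The light contrasts of the genotypes rest on separate pups, but both set pups of prefix J18 against pups of other prefixes. Agreement between the genotypes therefore cannot tell light from prefix. Their fold changes had the same sign in 28 of 38 members (73.7%), 23 of them negative in both, beside 69.9% of all genes. All 7 members that fell in Nj pups were negative in jj pups, as were 375 of the 383 genes that fell in Nj pups. Across the 38 members the fold changes of the genotypes had a Pearson r of 0.73 and a Spearman rho of 0.66, beside 0.29 and 0.45 across all genes tested. All genes were not matched to the members by level. Across the 611 genes called in Nj pups, a set chosen by its values in Nj pups, r was 0.80 and rho 0.82. Genes are not independent replicates, and members share the libraries. The difference between the light contrasts (jj minus Nj) passed for 0 members and 0 genes by edgeR. For Draxin it was 0.08 with a 95% interval between -0.16 and 0.32, and for Robo1 -0.07 with an interval between -0.21 and 0.07. At an unadjusted p under 0.05, 3 members differed, beside 3.41% of all genes: Ephb3 (0.30), Efna1 (-0.41) and Unc5b (0.18), each with an adjusted p of 1.00.

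**Figure D3:**
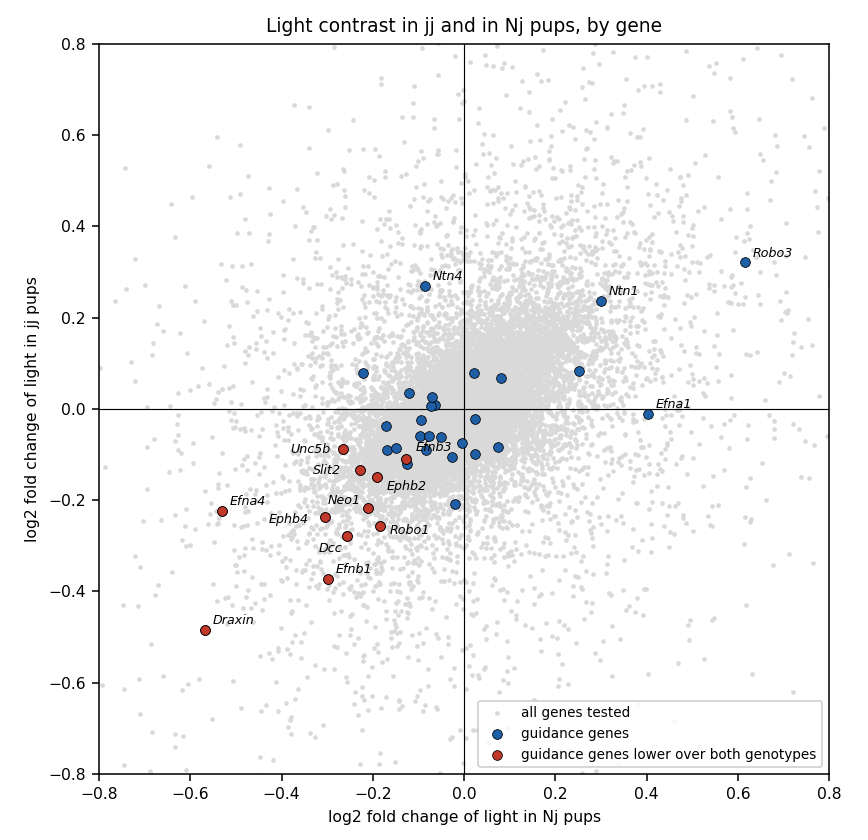
Log2 fold change of light in jj pups (vertical) and in Nj pups (horizontal) for all genes tested (grey), the 38 members (blue) and the 11 members lower over both genotypes (red). The axes end at ±0.8, which leaves 285 genes outside; the 11 red points all lie in the lower left quadrant, with Draxin lowest.

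For jaundice, jj pups were compared with Nj pups, with and without light, and jaundice cannot be told apart from the homozygous genotype. Without light, jj and Nj pups also differ in title prefix, whereas under light they share it. No member passed in either comparison by edgeR or by DESeq2, and 0 of all genes tested passed by edgeR (1 gene without light and 2 under light by DESeq2). Under light, the log2 fold changes of jj over Nj ran between -0.25 for Efnb2 and 0.36 for Ntn4, with a median of 0.00077 over the members. Without light they ran between -0.17 for Ntng1 and 0.43 for Robo3, with a median of -0.03. Draxin had a log2 fold change of -0.0034 under light (95% interval between -0.17 and 0.17) and of -0.09 without light (-0.26 to 0.08). These intervals do not reach the size of its light contrast in either genotype.

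At an unadjusted p under 0.05, 5 members differed between jj and Nj pups under light, beside 6.62% of all genes, and 3 differed without light, beside 6.36% of all genes. Under light they were Ephb3 (log2 fold change 0.23), Ntn4 (0.36), Unc5b (0.15), Efnb2 (-0.25) and Ephb4 (0.25), each with an edgeR adjusted p of 0.724. Without replicate 4 of the treated Nj pups the log2 fold change of Efnb2 was -0.08 (unadjusted p = 0.24 by edgeR). Ephb3 averaged 28.2 ± 2.21 CPM in light-treated jj pups and 24.1 ± 2.61 CPM in light-treated Nj pups, and 26.7 ± 2.54 CPM in untreated jj pups and 28.1 ± 1.76 CPM in untreated Nj pups (SD, n = 5 each). Without light they were Ntng1 (-0.17), Efna1 (0.28) and Ntn1 (0.32), each with an adjusted p of 0.775. For none of the 38 members did the pups of the jj and Nj groups fall into ranges that do not overlap, under light or without it, beside 1.20% and 1.00% of all genes.

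The spread between pups of a group was set beside that of all genes tested, which were not matched to the members by level. The coefficient of variation within groups had a median of 8.72% over the members and 8.68% over all genes tested. It was lowest for Robo1 (4.94%) and highest for Robo3 (22.0%), the member with the fewest reads.

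Other genes of axon guidance were listed as ligands and co-receptors (28 tested) and as intracellular effectors of guidance receptors (53 tested). Averaged over genotypes, 6 of the 28 fell after light and 0 rose, beside 5.74% of all genes lower and 4.35% higher, with a median log2 fold change of -0.04. They were Reln (-0.36), the secreted protein that layers the hippocampus, Islr2 (-0.37), Ptprf (-0.18), Ror2 (-0.29), Flrt1 (-0.16) and Rgma (-0.14), a ligand of Neo1, with edgeR adjusted p between 8.91e-05 and 0.0201. In jj pups Reln passed and in Nj pups Reln and Islr2, each of them lower.

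Of the 53 effectors, 8 fell, beside 5.74% of all genes, and the median was -0.03. Another 3 rose, a share near the 4.35% of all genes that were higher. Among those that fell were Trim67 (log2 fold change -0.37, edgeR adjusted p = 0.000705), a ubiquitin ligase that binds Dcc in mice, Srgap1 (-0.22, 0.00236) and Srgap2 (-0.11, 0.0148), which are GTPase-activating proteins downstream of Robo receptors, and Trio (-0.15, 0.0154), an exchange factor in the Dcc pathway. The others were Maged1, Afdn, Enah and Vav2, between -0.15 and -0.12. Those that rose were Cap2 (0.34, 0.00102), Chn1 (0.29, 0.000767), a Rac-inactivating protein that acts below Epha4 in mice, and Tiam1 (0.17, 0.029). By genotype, 0 effectors passed in jj pups, and 6 fell and 2 rose in Nj pups, beside 2.51% of all genes lower and 1.49% higher.

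**Figure D4:**
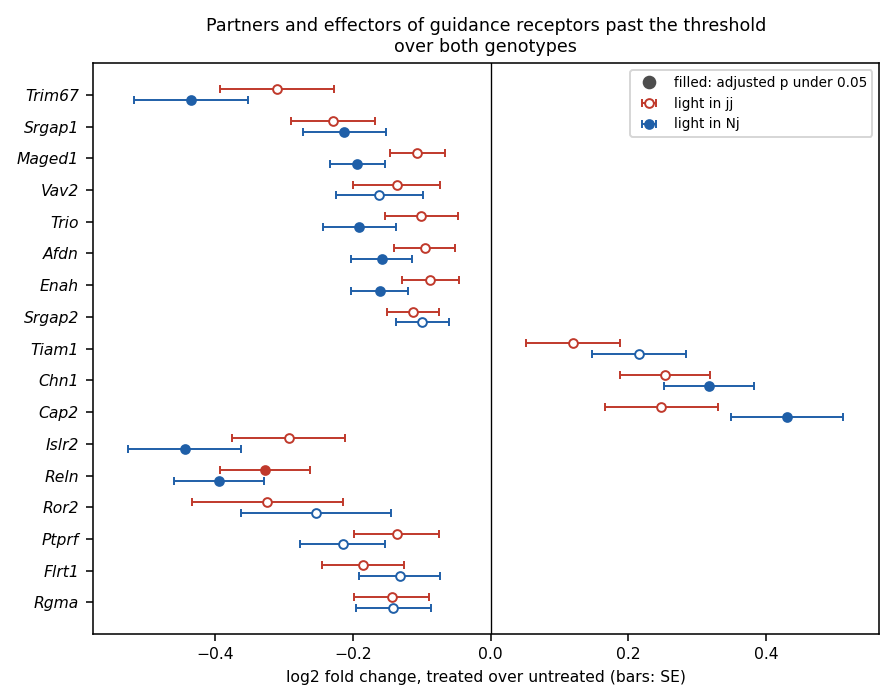
Log2 fold change of light-treated over untreated pups, in jj (red) and Nj (blue), for the 17 listed partners and effectors that passed over both genotypes (bars are SE; filled points passed an adjusted p of 0.05 in that genotype). In jj pups Reln is the only filled point; Cap2, Chn1 and Tiam1 lie right of 0 and the other 14 left of it in both genotypes.

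Markers of cell types moved with light in part, and their share in the values above was not tested. The summed level of 18 markers of immature neurons was 12145 to 13536 CPM in light-treated jj pups, against 12631 to 15217 CPM in untreated jj pups, and 12367 to 14255 CPM in light-treated Nj pups, against 14388 to 15616 CPM in untreated Nj pups. These sums did not overlap in Nj pups. Averaged over genotypes, 8 of the 18 fell and 0 rose (median log2 fold change -0.19), beside 5.74% of all genes lower and 4.35% higher. Of 10 markers of hippocampal neurons, 4 fell and 0 rose (median -0.17), with sums of 1463 to 1714 CPM in light-treated jj pups, against 1492 to 1725 CPM in untreated jj pups, and 1293 to 1636 CPM in light-treated Nj pups, against 1542 to 1736 CPM in untreated Nj pups. For comparison, 11 of the 38 members fell and 0 rose, with a median log2 fold change of -0.07 over all 38.

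Of 15 markers of endothelium and mural cells, which also express Ephb4 and Unc5b, 3 fell and 1 rose (median -0.04). Of all genes tested, 5.74% were lower and 4.35% higher. Their sums were 687 to 735 CPM in light-treated jj pups, against 708 to 815 CPM in untreated jj pups, and 678 to 780.5 CPM in light-treated Nj pups, against 735 to 753 CPM in untreated Nj pups. Of 12 markers of meninges tested, 0 passed, and their median was -0.43, with 11 negative. The lowest edgeR adjusted p among these 12 was 0.0607. At an unadjusted p under 0.05 by edgeR, 6 of the 12 were lower over both genotypes, beside 13.3% of all genes. In jj pups 7 were lower at that level, beside 7.31% of all genes, and in Nj pups 0 were lower and 1 higher. Sums over the 13 meningeal markers found spread over 485 to 1059 CPM in light-treated jj pups, against 447 to 1226 CPM in untreated jj pups, and 473 to 986 CPM in light-treated Nj pups, against 460.2 to 944 CPM in untreated Nj pups. The medians of these sums were 647 CPM in light-treated and 1027 CPM in untreated jj pups. They were 683 CPM in light-treated and 856 CPM in untreated Nj pups. The share of meninges in the falls of members was not tested. The other of the 13, Ogn, was at 0 in 18 libraries and too low to be tested.

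Of 14 markers of choroid plexus tested, 0 passed, 13 were positive and the median was 0.70. Sums over all 15 listed choroid plexus markers were 134 to 8818 CPM in light-treated jj pups, against 70.4 to 10991 CPM in untreated jj pups, and 78.9 to 4620 CPM in light-treated Nj pups, against 76.5 to 4816 CPM in untreated Nj pups. The marker not tested was Otx2, a transcription factor of that tissue, which was at 0 in 19 libraries. Without the 7 libraries above 1000 CPM of Ttr, 5 members fell on average over genotypes and 0 rose, beside 1.27% of all genes lower. They were Draxin (log2 fold change -0.43, edgeR adjusted p = 0.0194), Neo1 (-0.18, 0.0214), Robo1 (-0.20, 0.0259), Efnb1 (-0.34, 0.0364) and Slit2 (-0.18, 0.0395). The other 6 that fell with all libraries stayed negative and had adjusted p between 0.0544 (Ephb4) and 0.418 (Efnb3). Among glial lists, averaged over genotypes, 3 of 12 astrocyte markers rose and 1 fell, with 6 positive, 6 negative and a median of 0.02. Of 12 oligodendrocyte markers tested 1 rose (median 0.08), and of 12 microglia markers 3 rose (median 0.17). With all libraries, 4.35% of all genes were higher and 5.74% lower.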

How the data were processed

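The authors deposited a table of raw read counts per gene for 20 hippocampal libraries, without scaling. The submitters' processing notes list FastQC, TopHat2 2.0.13, Subread and edgeR. They name the mouse build mm10, although gene identifiers in the table are rat ones. The rat build and the strand setting of the counting are not given in the sources used here. Antisense or overlapping transcripts therefore cannot be told apart from the members. All rows named a gene, and no reads were realigned.

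The 38 members were selected by symbol and a mean count of at least 10. The members, the lists of other guidance genes and the marker lists were chosen with earlier results of these data known, so no pattern here is independent support. Counts were filtered with filterByExpr by group (15272 of 32883 genes kept), normalised by TMM and fitted in edgeR 4.0.16 (R 4.3.3, limma 3.58.1) with a mean per group over all 20 libraries and robust quasi-likelihood dispersions. The contrasts were light in jj, light in Nj, their mean, jj against Nj under light, jj against Nj without light, and the difference of the light contrasts. Adjusted p-values cover all genes of a contrast and are called under 0.05. As the labels state no litter, p-values measure the spread between these pups, and low counts are limited by counting error: Robo3 rests on a mean of 48.4 reads. Values of every pup are given for the members that passed in any contrast and for Draxin, Dcc, Neo1, Ntn1 and all Slits and Robo receptors; the other members are given by range and fold change, and where no member passed, those with the lowest p are named. The procedure was tested on simulated counts with changes put into the light-treated Nj libraries. The simulation held no prefix or Ttr difference, so it cannot tell how either affects the calls. Alternatives were size factors of DESeq2 1.42.0, its Wald test, testing every gene with a read, requiring a mean of 10 reads, the compared groups alone, leaving out libraries above 1000 CPM of Ttr, untreated Nj pups of prefix J15 alone, and leaving out each library in turn.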

Additional observations from a re-analysis of the deposited data

Results flagged for a closer look

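In 9 of the 152 groups of 5 pups checked (38 members in 4 groups, 5.92%), a single pup stood apart from the other 4 by more than Dixon's 95% criterion allows; chance flags about 1 in 20 groups. Of the 9 values, 3 came from replicate 4 of the light-treated Nj pups, each of them the highest of its group, and the other 6 came from 6 different libraries. In that pup Efnb1 had 38.7 CPM, where the other 4 had 28.0 to 30.5 CPM, and Efnb2 had 139 CPM, where the other 4 had 78.2 to 94.3 CPM. Unc5d had 66.7 CPM in it, where the other 4 had 39.9 to 44.6 CPM. Ntng1 was low in replicate 1 of the light-treated Nj pups, with 29.8 CPM where the other 4 had 36.7 to 37.9 CPM. Ephb2 was low in replicate 2 of the light-treated jj pups, with 82.4 CPM where the other 4 had 93.4 to 96.3 CPM. Among untreated jj pups, Ntn1 was low in replicate 5, with 3.83 CPM where the other 4 had 5.36 to 5.89 CPM, and Unc5a was low in replicate 1, with 96.4 CPM where the other 4 had 107 to 111 CPM. Slit1 was high in replicate 2 of the same group, with 103 CPM where the other 4 had 94.6 to 96.6 CPM. Epha10 was high in replicate 2 of the untreated Nj pups, with 11.7 CPM where the other 4 had 7.35 to 8.50 CPM.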

How the results depend on the processing

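Every member that passed in a light contrast kept a negative fold change in each alternative of that contrast. Draxin passed in all 17 alternatives for Nj pups and, with Efnb1, Neo1, Robo1 and Slit2, in all 26 averaged over genotypes; Dcc, Efna4 and Unc5b passed in 25 of 26, Ephb2 in 19, Efnb3 in 14 and Ephb4 in 7. In jj pups Draxin and Robo1 each passed in 9 of 16. Without the libraries above 1000 CPM of Ttr, members called were 0 in jj pups, 1 in Nj pups and 5 on average, and all genes called were 0, 112 and 424, where all libraries gave 25, 611 and 1541; the cause was not tested. In that fit the fold change of Robo3 in jj pups was -0.12 and so reversed. The compared groups alone gave 0 members and 3 genes in jj pups, with fewer samples to estimate the spread. DESeq2 gave 5 members and 271 genes in jj pups, 1009 genes in Nj pups, and 1 gene for jaundice without light and 2 under light; the cause was not tested. Leaving out 1 pup at a time, members called numbered 0 to 3 in jj pups, 2 to 8 in Nj pups and 8 to 13 on average, and all genes called 0 to 43, 152 to 651 and 1020 to 1697. Both jaundice comparisons and the difference of the light contrasts gave 0 to 1 genes and 0 members in these fits. Epha10 passed as higher, in Nj pups and on average, without replicate 2 of the untreated Nj pups. No scaling moved the median of all genes by more than 0.006. No paired analysis was possible because the labels give no replicate number that pups of different groups share. At a mean of 21.2 M (mega) reads per library, depth limits Robo3 most, with a mean of 48.4 reads.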
